A study of Arabidopsis thaliana with 4 samples.

Results

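Xyloglucan endotransglucosylase/hydrolases (XTHs) and expansins are the 2 large families of secreted proteins that loosen and rebuild the plant cell wall. They were followed here in whole seedlings of Arabidopsis thaliana, of the wild type (WT) and of fer-4, which carries a mutation in FERONIA (FER), a gene for a cell-surface receptor kinase. A gene was taken as a member if its name in the files began with XTH, EXPA, EXPB, EXLA or EXLB and a digit. The rule found 59 of the 24252 genes listed, 32 XTH genes and 27 expansin genes, the latter made up of 20 EXPA, 3 EXPB, 3 EXLA and 1 EXLB. Of the 59, 56 were listed in all 4 libraries. A further 9 genes with such symbols in the RefSeq annotation (XTH1, EXPA19, EXPA22 to EXPA25 and EXPB4 to EXPB6) are not analysed here.

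XTHs cut xyloglucan, the main hemicellulose of the primary wall of dicots, and join the cut end to another xyloglucan chain, so that wall polymers can slide and be tethered again. Some XTHs also hydrolyse the chain. Expansins have no known hydrolytic activity; alpha-expansins (EXPA) loosen the bonds between cellulose and xyloglucan in acid walls, beta-expansins (EXPB) are best known from grass pollen, and the expansin-like proteins EXLA and EXLB share the fold without a settled activity. FERONIA binds RALF peptides and pectin at the cell surface and governs cell expansion, and members of both families are expressed where cells elongate, in hypocotyls, leaves, root elongation zones and root hairs.

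The data are 4 RNA-seq libraries, 2 labelled WT and 2 labelled fer-4 with the genotype FERONIA-/-, all of the Col-0 ecotype. Seedlings of both genotypes were 7 days old, had grown upright on diluted Murashige and Skoog plates with 16 h of light a day and were untreated. Whether the 2 libraries of a genotype are separate cultures is not stated, and p-values therefore describe the spread of these 4 libraries alone, part of which may be technical. Values are FPKM (fragments scaled to transcript length and library size) as the authors deposited them. Depth, estimated from a peak among low values within a preset range, was 19.7 to 21.9 M fragments. At that depth 1 FPKM in a transcript of 1500 bp stands for about 29.5 to 32.8 fragments. FER itself stood at 89.0 and 91.9 FPKM in WT against 60.6 and 62.1 in fer-4. With 1 line of each genotype, the mutation and any other difference between the lines cannot be told apart.

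Log2(FPKM + 1) values were compared between genotypes with limma for the 19183 genes whose mean over the 4 libraries reached 1 FPKM, and a gene was called at an adjusted p under 0.05. Higher genes were 61.4% of all calls as deposited and 49.7% after quantile normalization, which gave 3 higher and 20 lower members against 6 and 20 as deposited. Of the 59 members, 50 passed the filter on low values; the other 9 stayed at or below 1.48 FPKM in every library. XTH10 and XTH26 passed although their WT mean was under 1 FPKM, so their place among the tested genes rests on fer-4. With 2 libraries a group, an exact permutation test cannot go below a share of 33.3% of the splits.

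The XTH sum was lower in fer-4, the sum of all expansins was lower by less, and the alpha-expansin sum overlapped between genotypes. The summed FPKM of the 32 XTH genes was 1765 and 1871 FPKM in WT against 1092 and 1115 in fer-4. Both fer-4 libraries lay far below both WT libraries, and the WT mean was 1.65 times as high. The 27 expansin genes summed to 618 and 644 FPKM in WT against 579 and 494 in fer-4. Here too the fer-4 libraries lay below the WT libraries, with a WT mean 1.18 times as high. Within them, the 20 EXPA genes summed to 443 and 449.9 FPKM in WT against 481 and 404 in fer-4, values that overlap between genotypes. The 3 EXLA genes summed to 119 and 131 FPKM in WT against 40.4 and 45 in fer-4, so that WT stood 2.93 times as high on average. For scale, the summed FPKM of a whole library was between 680752 and 689279. In these bulk samples, fewer cells of a type and less RNA per cell cannot be told apart.

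By gene, 16 of the 27 tested XTH genes fell and 2 rose, and of the 23 tested expansins 4 fell and 4 rose. Over all tested genes 9.00% fell and 14.3% rose. The tested XTH genes had a median log2 fold change of -0.56 and the expansins -0.15, beside 0.00531 for all tested genes. In 18 XTH genes and 9 expansins both fer-4 values lay below both WT values, as they did in 31.7% of all tested genes. Both fer-4 values lay above in 7 and 6, against 34.4% of all tested genes. Without WT replicate 1, 6 XTH genes and 2 expansins were lower and 0 members of either family were higher, and without WT replicate 2, 8 XTH genes and 2 expansins were lower and 0 higher, as 1905 and 1688 genes were called in all, against 4469 with both. Without fer-4 replicate 1, 8 expansins were lower and 4 XTH genes higher. The 7 calls that held in all alternatives run were those of XTH7, XTH9, XTH17, XTH18, XTH19, EXLA1 and EXLA2, all lower. The difference between the families was not itself tested.

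**Figure D1:**
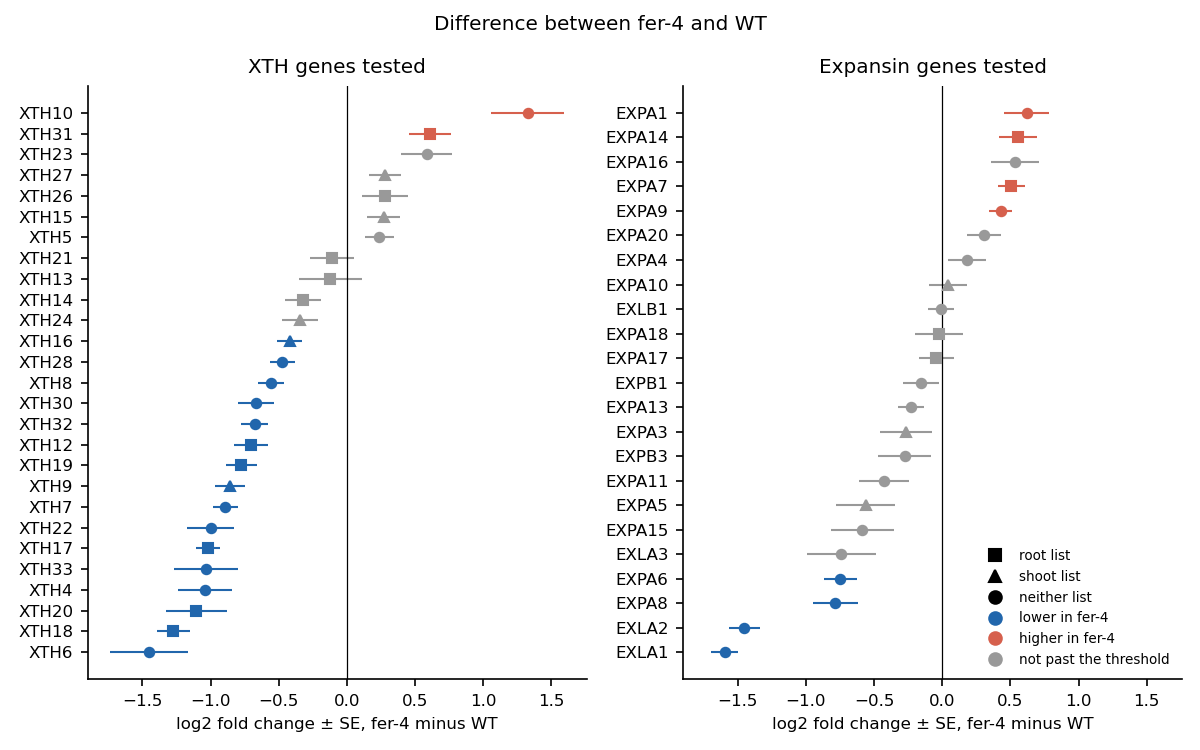
Log2 fold change of log2(FPKM + 1), fer-4 minus WT, with limma's standard error, for the 27 tested XTH genes (left) and 23 tested expansins (right); squares mark the root list, triangles the shoot list, and colour the call. Most XTH genes lie left of 0, with -1.45 for XTH6 at the bottom, while expansins spread to both sides, from -1.60 for EXLA1 to 0.62 for EXPA1.

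A few genes carry most of the XTH transcript. The 5 with the highest mean level, XTH4, XTH22, XTH9, XTH24 and XTH27, made up 67% of the family's summed FPKM in WT and 64.7% in fer-4. XTH4, a broadly expressed XTH of growing tissues (chromosome 2, 2763449 to 2765743, plus strand), was the most abundant member in both genotypes, with 419 and 488 FPKM in WT against 266 and 181 in fer-4 (log2 fold change -1.04 ± 0.20 (SE), adjusted p = 0.0151). The groups do not overlap, although the fer-4 libraries differ from each other by more than the WT libraries do. XTH22, known as TCH4 for its rapid induction by touch (chromosome 5, 23307006 to 23308680, minus strand), ranked second in both genotypes with 298 and 324 FPKM in WT against 130.1 and 184 in fer-4 (log2 fold change -1.0 ± 0.17 (SE), adjusted p = 0.0113). XTH9, known from the shoot apex (chromosome 4, 1415617 to 1417444, plus strand), measured 207 and 238 FPKM in WT against 127 and 117 in fer-4 (log2 fold change -0.86 ± 0.11 (SE), adjusted p = 0.00384). The WT mean was 2.03 times the fer-4 mean for XTH4, 1.98 times for XTH22 and 1.82 times for XTH9, and in all 3 the gap between genotypes exceeded the spread within them.

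Of the 5 most abundant genes, XTH24 and XTH27 were not called. XTH24, first known as MERI5 from the shoot meristem, measured 158 and 169.7 FPKM in WT against 115 and 144 in fer-4. Both fer-4 values were below WT, but the call was not made (adjusted p = 0.111, log2 fold change -0.34 ± 0.13). XTH27, described from leaf veins, went the other way with 66.8 and 66.3 FPKM in WT against 73.3 and 89.7 in fer-4 and was not called either (adjusted p = 0.134). Without fer-4 replicate 2 XTH24 was called (adjusted p = 0.0422), and without fer-4 replicate 1 XTH27 was (adjusted p = 0.0392). XTH28, known from stamens, fell from 61.3 ± 0.300 to 43.9 ± 3.13 FPKM (SD, n = 2; adjusted p = 0.0145). In the 10 most abundant XTH genes, 8 fell and 0 rose, where 9.00% of all tested genes fell and 14.3% rose. Across the 27 tested XTH genes the rank correlation of mean level with log2 fold change was -0.43 (Spearman, across genes that share the same 4 libraries), and the pseudocount shrinks the change of low genes. The calls of XTH4, XTH22 and XTH28 ended without WT replicate 1 (adjusted p = 0.0675, 0.0657 and 0.0846), without WT replicate 2 (adjusted p = 0.111, 0.0911 and 0.0972) and that of XTH28 without fer-4 replicate 2 (adjusted p = 0.0526).

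**Figure D2:**
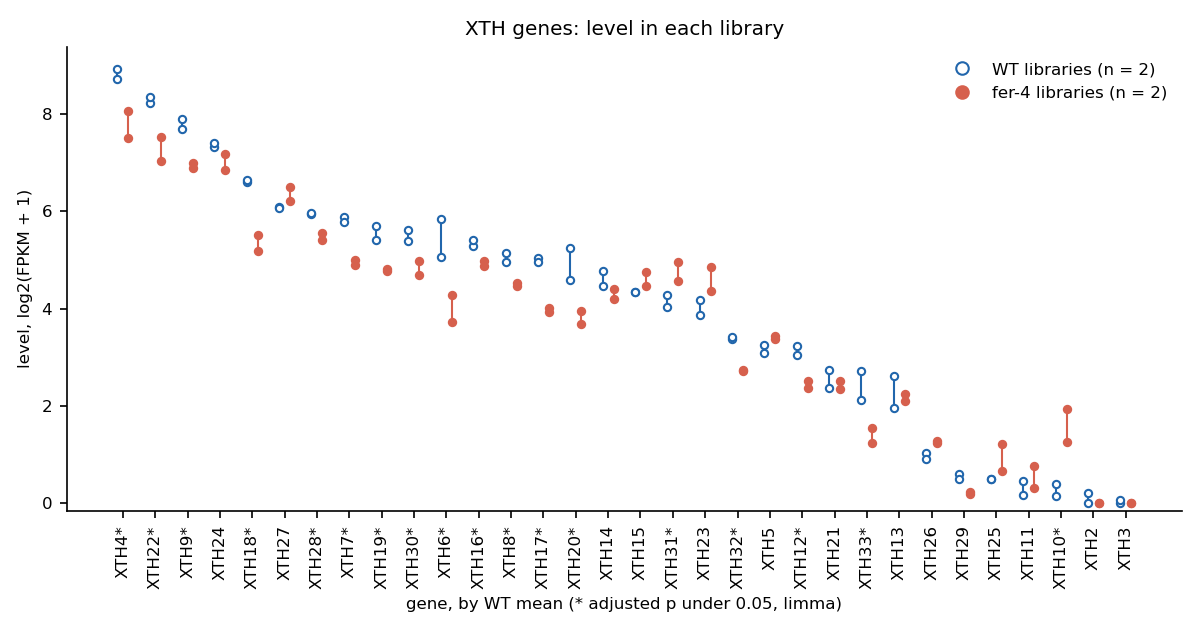
Level of each of the 32 XTH genes as log2(FPKM + 1), ordered by WT mean; open points are the 2 WT libraries, filled points the 2 fer-4 libraries, and a line joins replicates. From XTH4 down to XTH20 the fer-4 points mostly sit below the WT points, with XTH27 as an exception (66.8 and 66.3 FPKM in WT, 73.3 and 89.7 in fer-4), while those of XTH10, XTH15, XTH23 and XTH31 sit above.

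XTH17, XTH18, XTH19 and XTH20 form a group of close copies known mainly from roots, and all 4 fell. The coding bases around the catalytic site are shown because they show how alike the 4 genes are and therefore how far their reads can be told apart. The capitals mark the 27 bases that encode the catalytic motif of glycoside hydrolase family 16, found by translating the RefSeq coding sequence on TAIR10.1, with 24 bases on either side, 5′ to 3′ on the coding strand.
XTH17: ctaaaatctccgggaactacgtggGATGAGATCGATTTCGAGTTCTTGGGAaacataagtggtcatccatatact
XTH18: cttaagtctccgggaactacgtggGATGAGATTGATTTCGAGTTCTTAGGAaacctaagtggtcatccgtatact
XTH19: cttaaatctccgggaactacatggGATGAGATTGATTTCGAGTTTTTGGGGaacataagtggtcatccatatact
XTH20: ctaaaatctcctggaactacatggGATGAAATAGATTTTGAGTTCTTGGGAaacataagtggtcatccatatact
Between pairs of these genes, 5 to 10 of the 75 bases differ. Over the whole coding sequence XTH17 and XTH18 share 92.2% of aligned bases, XTH18 and XTH19 89.2%, and XTH18 and XTH20 85.6%. Exact stretches are short. Of the windows of 50 bases in the transcript of XTH18, 1.56% occur in the transcript of another gene, and of 100-base windows 0 do. How reads with several matches were treated is not stated in the labels.

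XTH18 (chromosome 4, 14825757 to 14827211, minus strand) measured 96.1 and 99.4 FPKM in WT against 35.6 and 44.6 in fer-4 (log2 fold change -1.27 ± 0.12 (SE), adjusted p = 0.0014). It was the most abundant of the 4 in both genotypes. XTH17 (chromosome 1, 24257054 to 24258506, plus strand) measured 32 and 29.9 FPKM in WT against 14.2 and 15.3 in fer-4 (log2 fold change -1.02 ± 0.09 (SE), adjusted p = 0.00109). XTH19, which lies next to XTH18 (chromosome 4, 14828712 to 14830224, minus strand), measured 51.2 and 41.7 FPKM in WT against 27 and 26.3 in fer-4 (log2 fold change -0.77 ± 0.12 (SE), adjusted p = 0.00664). XTH20 (chromosome 5, 19481897 to 19483527, plus strand) measured 37.2 and 23 FPKM in WT against 14.4 and 11.8 in fer-4 (log2 fold change -1.10 ± 0.23 (SE), adjusted p = 0.019). In all 4 genes both fer-4 values lay below both WT values, as they did in 31.7% of all tested genes. The ratio of WT to fer-4 ran from 1.75 in XTH19 to 2.44 in XTH18. The WT libraries of XTH20 lie furthest apart of the 4. The call of XTH20 ended without WT replicate 1 (adjusted p = 0.0576). Without the filter on low values the call of XTH20 ended too (adjusted p = 0.0532).

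Further falls were seen in XTH6, XTH7, XTH8, XTH16 and XTH33. XTH6 had the largest fall of the family, with 32.5 and 56.5 FPKM in WT against 18.3 and 12.3 in fer-4 (log2 fold change -1.45 ± 0.29 (SE), adjusted p = 0.017), and its WT libraries lie far apart. XTH7 measured 58 and 54.2 FPKM in WT against 28.7 and 30.9 in fer-4 (log2 fold change -0.89 ± 0.088 (SE), adjusted p = 0.00159), with close replicates in both genotypes. XTH8 fell from 32.2 ± 3.0 to 21.5 ± 0.591 FPKM (SD, n = 2; adjusted p = 0.0116) and XTH16 from 39.8 ± 2.58 to 29.5 ± 1.59 FPKM (adjusted p = 0.0243). XTH33, which encodes an XTH held at the plasma membrane, measured 5.6 and 3.35 FPKM in WT against 1.35 and 1.91 in fer-4 (adjusted p = 0.0263). The calls of XTH8, XTH16 and XTH33 ended without WT replicate 1 (adjusted p = 0.078, 0.0757 and 0.114), those of XTH6 and XTH16 without WT replicate 2 (adjusted p = 0.0797 and 0.147) and that of XTH16 without fer-4 replicate 1 (adjusted p = 0.0703). Without the filter on low values the calls of XTH6 and XTH33 ended as well (adjusted p = 0.0508 and 0.0616).

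XTH27 to XTH32 did not move together, although most of those called fell, as XTH33 did. XTH27 to XTH30 belong to the third clade, as do XTH31 and XTH32, in a branch of their own with known hydrolase activity. XTH30 fell from 44.6 ± 5.36 to 27.8 ± 4.02 FPKM (SD, n = 2; adjusted p = 0.0182). XTH32 measured 9.46 and 9.75 FPKM in WT against 5.7 and 5.58 in fer-4 (log2 fold change -0.68 ± 0.10 (SE), adjusted p = 0.00651). XTH31, known from roots and their response to aluminium, rose, with 18.4 and 15.3 FPKM in WT against 29.9 and 22.7 in fer-4 (log2 fold change 0.61 ± 0.16 (SE), adjusted p = 0.0382). XTH29 stayed at 0.517 FPKM or less and was not tested. Apart from XTH31, XTH10 was the only XTH that rose, from 0.308 and 0.114 FPKM in WT to 1.39 and 2.83 FPKM in fer-4 (adjusted p = 0.0185). These low values rest on few fragments in WT. The calls of XTH10, XTH30, XTH31 and XTH32 ended without WT replicate 1 (adjusted p = 0.0732, 0.112, 0.0915 and 0.0526), without WT replicate 2 (adjusted p = 0.112, 0.0588, 0.203 and 0.0647) and that of XTH31 without fer-4 replicate 1 (adjusted p = 0.0814). The call of XTH31 also ended with quantile normalization (adjusted p = 0.0616), without the trend (0.0583) and without the filter on low values (0.0794).

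Among the expansins the sharpest falls were in the EXLA genes. EXLA1 (chromosome 3, 16896166 to 16897308, plus strand) measured 92.6 and 106 FPKM in WT against 31 and 33.3 in fer-4 (log2 fold change -1.60 ± 0.10 (SE), adjusted p = 0.000417). By mean level EXLA1 went from the most abundant expansin in WT to the seventh in fer-4. In WT replicate 1, however, EXPA6 was above it (93.6 against 92.6 FPKM). EXLA2 (chromosome 4, 17978422 to 17979740, minus strand) measured 18.9 and 16.8 FPKM in WT against 6.26 and 5.49 in fer-4 (log2 fold change -1.45 ± 0.11 (SE), adjusted p = 0.000717). In both genes the WT mean was 3.09 and 3.03 times the fer-4 mean, and the genotypes were far apart for the spread of the replicates. EXLA3, which lies next to EXLA1 and shares 86.6% of its coding bases, measured 7.84 and 8.6 FPKM in WT against 3.2 and 6.25 in fer-4; both fer-4 values were below WT but the gene was not called (adjusted p = 0.0863). Without fer-4 replicate 2 EXLA3 was called (adjusted p = 0.00287). EXLB1, the single EXLB gene, did not separate the genotypes, with 12.7 and 13.3 FPKM in WT against 12.4 and 13.4 in fer-4. The end of EXLA1 overlaps that of the histone gene AT3G45980 on the other strand by 22 bp, and the files give both the same locus. This histone gene, named H2B in the files, measured 134 and 127 FPKM in WT against 141 and 123 in fer-4.

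The alpha-expansins moved both ways. EXPA1, an expansin known from guard cells and also from roots (chromosome 1, 26141726 to 26143538, plus strand), was the most abundant EXPA in fer-4 and rose, with 84.4 and 65.4 FPKM in WT against 129 and 102 in fer-4 (log2 fold change 0.62 ± 0.17 (SE), adjusted p = 0.0441). EXPA6 (chromosome 2, 12431338 to 12433796, minus strand) was the most abundant EXPA in WT and fell, with 93.6 and 103 FPKM in WT against 64.4 and 52.2 in fer-4 (log2 fold change -0.75 ± 0.12 (SE), adjusted p = 0.00935). EXPA4, the third EXPA gene by WT level, measured 60.7 and 63.8 FPKM in WT against 81 and 61.7 in fer-4, values that overlap, and was not called (adjusted p = 0.389). EXPA9 rose from 27.9 ± 0.807 to 37.8 ± 0.405 FPKM (SD, n = 2; adjusted p = 0.0151). EXPA8 fell from 8.11 ± 1.28 to 4.3 ± 0.877 FPKM (adjusted p = 0.0213).

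Several EXPA genes differed between the fer-4 libraries. EXPA15 measured 43.5 and 52.4 FPKM in WT against 40.5 and 24.4 in fer-4, EXPA11 23.8 and 22.9 FPKM in WT against 21 and 13.9 in fer-4, and EXPA5 14 and 14.4 FPKM in WT against 12.1 and 7.17 in fer-4. In all 3, fer-4 replicate 2 was the lower library, and none was called with both libraries (adjusted p = 0.125, 0.146 and 0.115), while without fer-4 replicate 1 all 3 were, together with EXPB3 (adjusted p = 0.00383, 0.00602, 0.0032 and 0.0356). EXPB3 measured 35.5 and 43.3 FPKM in WT against 39 and 26.5 in fer-4 and EXPB1 6.34 and 5.25 FPKM in WT against 5.42 and 4.78 in fer-4, and both overlapped between genotypes. The calls of EXPA1, EXPA6, EXPA8 and EXPA9 ended without WT replicate 1 (adjusted p = 0.0656, 0.0526, 0.0613 and 0.0963), without WT replicate 2 (adjusted p = 0.211, 0.0813, 0.138 and 0.0811), that of EXPA1 without fer-4 replicate 1 (adjusted p = 0.102) and that of EXPA8 without fer-4 replicate 2 (adjusted p = 0.0517). The call of EXPA1 also ended with quantile normalization (adjusted p = 0.0641), median-of-ratios scaling (0.0505), without the trend (0.0661) and without the filter on low values (0.0888), which ended that of EXPA8 as well (0.0556).

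**Figure D3:**
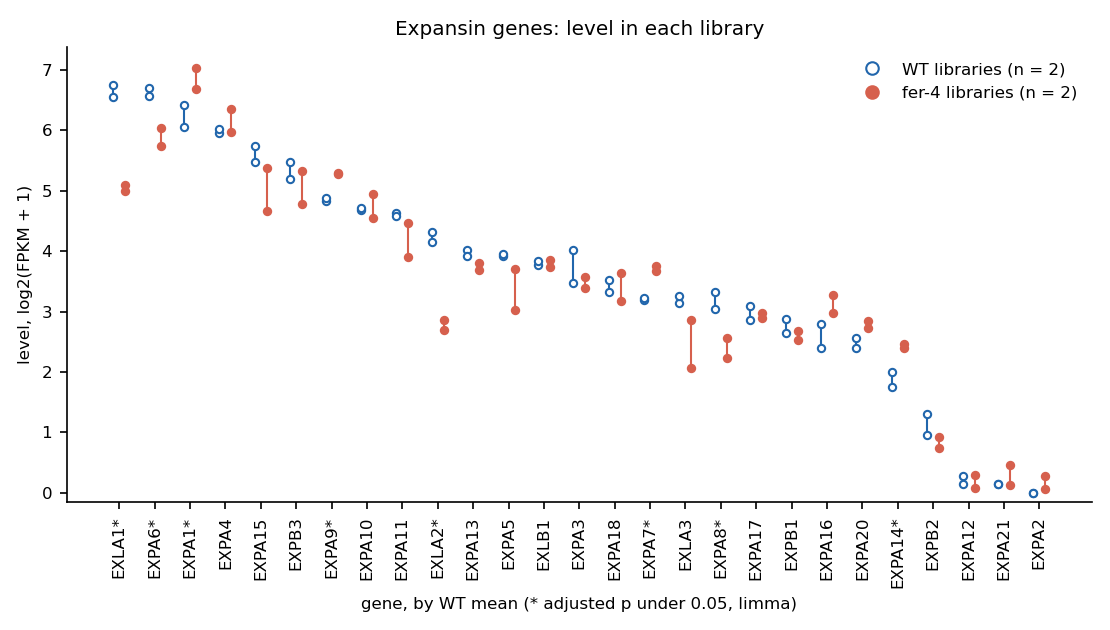
Level of each of the 27 expansin genes as log2(FPKM + 1), ordered by WT mean; open points are the 2 WT libraries, filled points the 2 fer-4 libraries, and a line joins replicates. EXLA1 and EXLA2 show the widest gaps (WT means of 99.3 and 17.8 FPKM, fer-4 means of 32.1 and 5.88 FPKM), and EXPA1 lies higher in fer-4.

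To compare organs, members known mainly from roots (EXPA7, EXPA14, EXPA17, EXPA18, XTH12, XTH13, XTH14, XTH17, XTH18, XTH19, XTH20, XTH21, XTH26 and XTH31) and from the shoot apex, leaves, petioles or leaf veins (XTH9, XTH15, XTH16, XTH24, XTH27, EXPA3, EXPA5 and EXPA10) were put in 2 lists from general knowledge of the families. Earlier results of these data were known when the lists were made. In the root list, 5 genes fell and 3 rose of 14. In the shoot list, 2 fell (XTH9 and XTH16) and 0 rose of 8 by limma, with 4 at an unadjusted p under 0.05. The shares over all tested genes were 9.00% lower, 14.3% higher and 37.6% at an unadjusted p under 0.05. Without fer-4 replicate 1, 2 shoot-list genes (XTH15 and XTH27) were higher, and without either WT replicate 0 root-list genes were. Of the 10 root-list XTH genes 5 fell, 1 rose and 4 were not called, and of its 4 expansins 2 rose and 2 were not called. The XTH genes of the root list summed to 282 and 246 FPKM in WT against 153 and 154 in fer-4, and its expansins to 29.1 and 26 FPKM in WT against 31.7 and 34.1 in fer-4. The root XTH sum was lower and the root expansin sum higher in both fer-4 libraries than in either WT library. The order of the root expansin sum rests on EXPA7, and without it the sum overlaps between genotypes. In the shoot list the XTH sum was 489.6 and 535 FPKM in WT against 365 and 408 in fer-4. Its expansin sum was 48.8 and 54.8 FPKM in WT against 45.2 and 46.4 in fer-4. Both were lower in fer-4, but 0 of the 3 expansins were called. The WT expansin sums also differ from each other by more than they differ from the nearest fer-4 sum. With EXPA1, which an alternative shoot list adds, the expansin sum would be higher in fer-4. EXPA1 alone measured 84.4 and 65.4 FPKM in WT against 129 and 102 in fer-4. The median log2 fold change was -0.12 in the root list and -0.30 in the shoot list. Without WT replicate 1 these medians were 0.073 and -0.44, and without WT replicate 2 -0.38 and -0.14, so their order and the sign in the root list rest on single libraries. With a mean of at least 5 FPKM the order turned as well (-0.51 and -0.30). The difference between the lists was not tested.

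**Figure D4:**
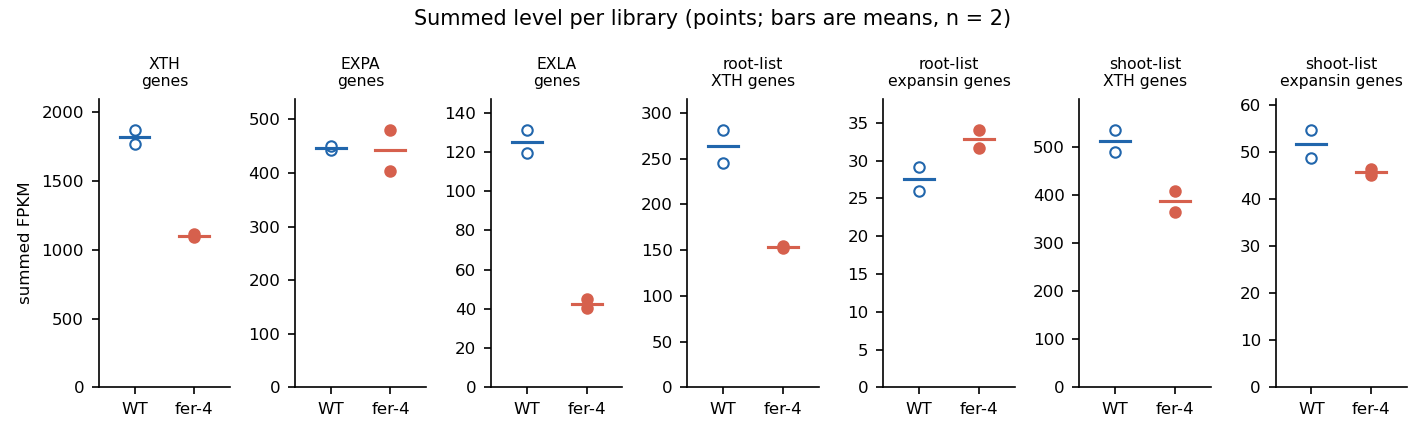
Summed FPKM of 7 groups of members in each library, each on its own axis from 0; points are libraries and bars are means of 2. The XTH, EXLA, root-list XTH, shoot-list XTH and shoot-list expansin sums are lower in fer-4 without overlap between genotypes. The EXPA sum overlaps, and the root-list expansin sum is higher in fer-4 (31.7 and 34.1 FPKM in fer-4, 29.1 and 26.0 in WT). Without EXPA7 the root-list expansin sum would overlap.

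The root-list rises were XTH31, described above, and the expansins EXPA7 and EXPA14. EXPA7, an expansin of root hairs, measured 8.1 and 8.39 FPKM in WT against 12.6 and 11.7 in fer-4 (log2 fold change 0.51 ± 0.10 (SE), adjusted p = 0.0154). EXPA18, its partner in root hairs, measured 10.5 and 9.02 FPKM in WT against 7.99 and 11.4 in fer-4 and was not called (adjusted p = 0.937). EXPA14, known from lateral roots, measured 3.0 and 2.37 FPKM in WT against 4.28 and 4.51 in fer-4 (adjusted p = 0.0381). EXPA17, also known from lateral roots, overlapped between genotypes with 7.53 and 6.22 FPKM in WT against 6.86 and 6.4 in fer-4. EXPA7 overlaps the neighbouring gene AT1G12570 by 23 bp on the other strand, and EXPA18 overlaps AT1G62978 by 46 bp. The calls of EXPA7 and EXPA14 ended without WT replicate 1 (adjusted p = 0.0963 and 0.073), without WT replicate 2 (adjusted p = 0.0886 and 0.175), that of EXPA14 without fer-4 replicate 1 (adjusted p = 0.0647) and without fer-4 replicate 2 (adjusted p = 0.109). The call of EXPA14 also ended with quantile normalization (adjusted p = 0.0671) and without the filter on low values (0.0675).

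Of the root-list XTH genes outside the group of XTH17 to XTH20, XTH12 and XTH31 (described above) were called and the others were not. XTH12 fell, with 8.38 and 7.31 FPKM in WT against 4.72 and 4.14 in fer-4 (log2 fold change -0.70 ± 0.12 (SE), adjusted p = 0.0121). XTH13, its neighbour with 89.7% identical coding bases, overlapped with 5.17 and 2.87 FPKM in WT against 3.71 and 3.27 in fer-4 (adjusted p = 0.739). XTH14 measured 26.4 and 21.3 FPKM in WT against 17.5 and 20.2 in fer-4 and was not called (adjusted p = 0.138). XTH26, known from root hairs, was near the filter at 1.06 and 0.865 FPKM in WT against 1.34 and 1.41 in fer-4 (adjusted p = 0.274), and XTH21 overlapped with 5.66 and 4.16 FPKM in WT against 4.13 and 4.74 in fer-4. Summed over EXPA7, EXPA18, XTH12, XTH13, XTH14 and XTH26, the root-hair members gave 59.6 and 49.7 FPKM in WT against 47.8 and 52.2 in fer-4, which overlap. The call of XTH12 ended without WT replicate 1 (adjusted p = 0.088) and without WT replicate 2 (adjusted p = 0.0564).

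Markers of the organs were read beside these lists. The 11 root markers (CASP1 to CASP5, MYB36, ESB1, WOX5, PLT1, PLT2 and TIP2-3) were all listed in the 4 libraries and summed to 178 and 149.6 FPKM in WT against 168 and 166 in fer-4. CASP5 fell and TIP2-3, a root aquaporin, rose, while the other 9 were not called. The 5 root-hair markers (RHD6, RSL4, COBL9, PRP3 and LRX1) summed to 45.7 and 33.9 FPKM in WT against 38.5 and 37.3 in fer-4, with 0 called by limma and 1 (RSL4) at an unadjusted p under 0.05. WT replicate 1 had the highest sum in both lists, and none of these markers was at 0. The 10 shoot markers (RBCS1A, RBCS2B, LHCB1.1, LHCB2.1, YAB1, YAB3, YAB5, STM, FAMA and GL1) summed to 13604 and 14748 FPKM in WT against 12947 and 9878 in fer-4, nearly all from RBCS1A and RBCS2B, which encode the Rubisco small subunit; STM of the shoot meristem fell and the other 8 tested were not called. Their lowest sum was in fer-4 replicate 2. The light-harvesting genes of the list went against the sum. LHCB1.1, listed under the name LHCB1.2, was at 4.97 and 3.15 FPKM in WT against 8.71 and 6.01 in fer-4 (unadjusted p = 0.0192, adjusted p = 0.0697, limma). LHCB2.1 was at 4.97 and 4.14 FPKM in WT against 7.14 and 5.31 in fer-4 (adjusted p = 0.158, limma). Both are low beside RBCS1A and RBCS2B, and how reads with several matches were treated is not stated. LHCB1.1 and LHCB2.1 therefore cannot stand for light-harvesting genes as a whole. For all tested genes the shares were 9.00% lower, 14.3% higher and 37.6% at an unadjusted p under 0.05 (limma). The part of organ proportions in the differences of the members was not tested.

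Of the 9 pairs of members with at least 84% identical coding bases, 7 (within XTH17 to XTH20, and EXLA1 with EXLA2) had both genes called lower and 2 had 1 called. Of the 15 pairs between 75% and 84%, 0 had both called, 11 had 1 called and 4 had none. The split at 84% lies between XTH19 with XTH20 (84.3%, both called) and EXLA2 with EXLA3 (82.8%, 1 called). The contrast therefore depends on where the split was placed, and no relation of identity to calls can be read from it. The pairs within XTH17 to XTH20 also share their genes and are not separate observations. XTH22 fell while XTH23, with 80.9% identical coding bases, measured 17.1 and 13.6 FPKM in WT against 19.6 and 28 in fer-4 (adjusted p = 0.0733). XTH16 fell while XTH15, which overlaps AT4G14120 by 382 bp on the other strand, measured 19.3 and 19.2 FPKM in WT against 21 and 25.9 in fer-4 (adjusted p = 0.155). Without fer-4 replicate 1 both XTH23 and XTH15 were called higher (adjusted p = 0.00929 and 0.0437). XTH28 fell while XTH27, 77.7% identical, was higher in both fer-4 libraries. EXPA1 rose while EXPA10, 79.2% identical, overlapped with 24.7 and 25.1 FPKM in WT against 22.3 and 29.7 in fer-4. Along the chromosomes, members lie within 20000 bp of each other in a run of XTH12, XTH13, XTH25 and XTH22 on chromosome 5, of XTH24, XTH18 and XTH19 on chromosome 4, and in the pairs XTH23 with XTH14 and EXLA3 with EXLA1. Only the pair of XTH18 and XTH19 had both neighbours called, and the gap between them is 1500 bp. XTH25, between XTH13 and XTH22, stayed at 1.33 FPKM or less, while XTH22 was the second most abundant XTH. EXPA20, whose exons are mostly shared with the antisense gene AT4G38215 (985 of 1142 bp), measured 4.89 and 4.27 FPKM in WT against 5.6 and 6.21 in fer-4 (adjusted p = 0.129). The differences between copies were not tested.

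The last members complete the families. XTH5 measured 8.57 and 7.49 FPKM in WT against 9.39 and 9.88 in fer-4 (adjusted p = 0.17), EXPA13 15.2 and 14.2 FPKM in WT against 11.9 and 12.9 in fer-4 (adjusted p = 0.148) and EXPA16 4.26 and 5.91 FPKM in WT against 6.88 and 8.66 in fer-4 (adjusted p = 0.0785). In each the genotypes did not overlap, and none was called. Over all tested genes both fer-4 values lay below WT in 31.7% and above in 34.4%. Without fer-4 replicate 1 EXPA16 was called (adjusted p = 0.0466). EXPA3 overlapped, at 12.7 ± 3.67 FPKM in WT and 10.2 ± 0.918 in fer-4 (SD, n = 2; adjusted p = 0.36). Of the genes under the filter, XTH2, XTH3 and EXPA2 had no listed value in at least 2 libraries. XTH11, EXPA12 and EXPA21 stayed at or below 0.702 FPKM, and EXPB2 reached 1.48 FPKM in WT replicate 1.

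Promoters of the members were searched for 4 short motifs on both strands, from 250 bases before to 50 bases after the annotated gene start on TAIR10.1. The rapid stress response element CGCGTT, known from genes induced rapidly by wounding, is in 7 of the 59 members (11.9%), against 3.4% of 27443 protein-coding genes. It is in 4 of the 20 members that fell, 0 of the 6 that rose and 2 of the 24 tested but not called (EXLA3 and XTH13). EXPA12, which was not tested, holds it as well. The 4 promoters of genes that fell are shown because they belong to genes of different classes (EXLA, EXPA and XTH). They are written 5′ to 3′ on the gene's strand, and the capitals mark the element, read as AACGCG on this strand.
EXLA1, chr3:16895916-16896215, plus strand: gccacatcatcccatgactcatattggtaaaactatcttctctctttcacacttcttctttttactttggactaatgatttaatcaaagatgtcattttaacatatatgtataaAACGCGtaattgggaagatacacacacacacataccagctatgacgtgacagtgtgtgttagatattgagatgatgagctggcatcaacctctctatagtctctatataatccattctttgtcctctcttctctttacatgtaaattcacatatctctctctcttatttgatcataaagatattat
EXPA6, chr2:12433747-12434046, minus strand: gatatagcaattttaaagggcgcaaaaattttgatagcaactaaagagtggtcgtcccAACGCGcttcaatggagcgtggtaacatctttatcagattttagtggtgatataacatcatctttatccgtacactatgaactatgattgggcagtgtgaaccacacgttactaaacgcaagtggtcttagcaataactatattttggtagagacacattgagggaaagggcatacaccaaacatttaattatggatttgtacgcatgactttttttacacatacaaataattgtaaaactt
XTH18, chr4:14827162-14827461, minus strand: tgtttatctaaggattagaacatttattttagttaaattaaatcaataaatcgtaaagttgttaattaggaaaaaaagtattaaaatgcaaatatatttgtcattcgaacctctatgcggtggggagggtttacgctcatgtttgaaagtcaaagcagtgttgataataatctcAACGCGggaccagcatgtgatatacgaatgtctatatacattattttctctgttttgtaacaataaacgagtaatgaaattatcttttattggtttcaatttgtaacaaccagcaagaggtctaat
XTH20, chr5:19481647-19481946, plus strand: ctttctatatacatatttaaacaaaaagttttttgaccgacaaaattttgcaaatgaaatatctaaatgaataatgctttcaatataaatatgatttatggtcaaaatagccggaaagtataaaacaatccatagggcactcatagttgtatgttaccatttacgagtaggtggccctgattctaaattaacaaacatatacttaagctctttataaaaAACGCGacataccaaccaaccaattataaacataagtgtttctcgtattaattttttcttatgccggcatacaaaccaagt
XTH17 and XTH19 fell as well and hold no such match in this window. The brassinosteroid element CGTGTG or CGTGCG is in 11 of 59 members (18.6%, against 8.19% of all), among them 3 of the 20 that fell, 2 of the 6 that rose and 3 of the 24 tested but not called. The auxin element TGTCTC is in 8 (13.6% against 14.2%) and the G-box CACGTG in 1 (1.69% against 7.68%), EXPB2, which was not tested. These are matches of letters in a window, counted after the expression results were known.

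The enzymes that build and trim xyloglucan, the substrate of the XTHs, were read beside the members. The list holds CSLC4, CSLC5, CSLC6, CSLC8, CSLC12, XXT1, XXT2, XXT3, XXT4, XXT5, MUR3, FUT1, XLT2, XUT1, AXY4, AXY4L, XYL1, BGAL10 and AXY8. Of its 19 genes 18 were tested, of which 4 fell and 0 rose, with a median log2 fold change of -0.22 and 6 at an unadjusted p under 0.05. Over all tested genes 9.00% fell, 14.3% rose and 37.6% had an unadjusted p under 0.05, and the list was not tested as a group. CSLC4, which makes the glucan backbone, fell, with 75.6 and 75.8 FPKM in WT against 38.4 and 51.3 in fer-4 (log2 fold change -0.76 ± 0.14 (SE), adjusted p = 0.0145). XXT1, which adds xylose to the backbone, measured 39.4 and 39.8 FPKM in WT against 24.8 and 29.4 in fer-4 (log2 fold change -0.54 ± 0.11 (SE), adjusted p = 0.0168). The fucosidase gene AXY8 and the galactosidase gene BGAL10, which trim xyloglucan in the wall, both fell. AXY8 measured 53.2 and 51.3 FPKM in WT against 37 and 32.5 in fer-4 (log2 fold change -0.58 ± 0.10 (SE), adjusted p = 0.00952), and BGAL10 25.3 and 25 FPKM in WT against 18.2 and 17.8 in fer-4 (log2 fold change -0.46 ± 0.083 (SE), adjusted p = 0.0126). XXT2 and XXT5, which also add xylose, were not called. XXT2 measured 67.5 and 59 FPKM in WT against 57.6 and 56.3 in fer-4 (adjusted p = 0.321), and XXT5 71.7 and 71.3 FPKM in WT against 57.6 and 60.4 in fer-4 (adjusted p = 0.0609). The calls of CSLC4, XXT1, AXY8 and BGAL10 ended without WT replicate 1 (adjusted p = 0.0906, 0.0955, 0.073 and 0.0836) and without WT replicate 2 (adjusted p = 0.101, 0.11, 0.0675 and 0.086).

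**Figure D5:**
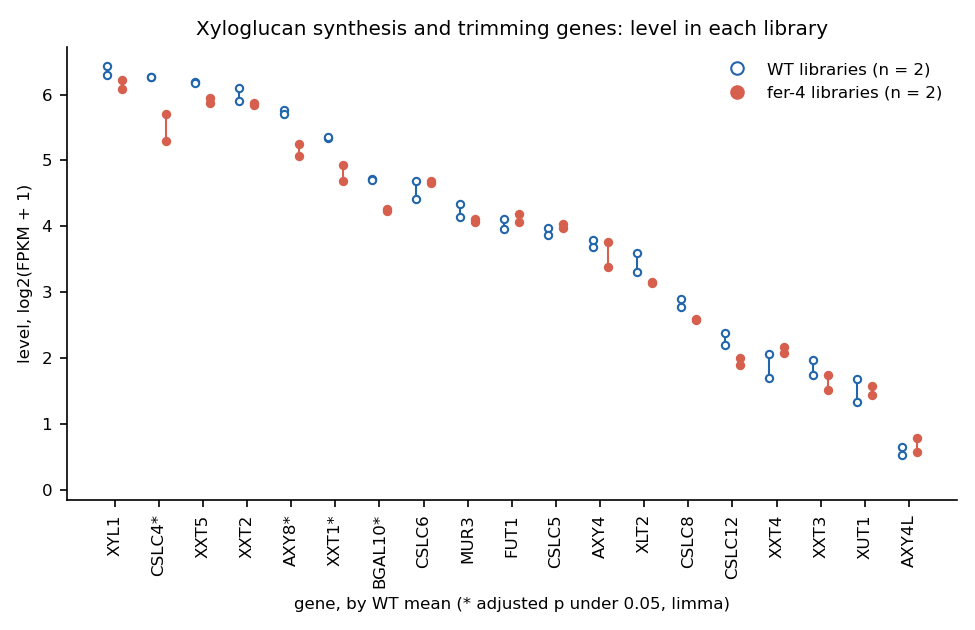
Level of the 19 xyloglucan synthesis and trimming genes as log2(FPKM + 1), ordered by WT mean; open points are the 2 WT libraries, filled points the 2 fer-4 libraries, and a line joins replicates. The fer-4 points lie below the WT points in 11 of the 18 tested genes, the called CSLC4, AXY8, XXT1 and BGAL10 among them, and above in 2. Over all tested genes these shares are 31.7% and 34.4%.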

How the data were processed

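Gene levels came from 4 tables, 1 per library, of FPKM that the authors deposited, labelled FPKM per the file headers. CASAVA, HISAT2 2.0.5, StringTie 1.3.3 and the build TAIR10 are listed in the submitters' processing notes, without roles. No source used here gives the strand setting or read length, so overlapping genes cannot be told apart by strand. Where a library lists no value for a gene, 0 was used. Positions and sequences come from RefSeq's TAIR10.1 annotation and genome, which matched 24039 gene identifiers, all 59 members included. FPKM keep no counts. For depth, the peak of FPKM times transcript length within a preset low range was assumed to be 1 fragment. The preset range limits the depths that this estimate can give.

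Log2(FPKM + 1) was compared with limma 3.58.1 (R 4.3.3; lmFit, eBayes with trend) between 2 WT and 2 fer-4 libraries, without covariates, for genes averaging 1 FPKM or more; p-values are two-sided and adjusted by Benjamini-Hochberg over 19183 genes, with a threshold of 0.05. The procedure was tested on simulated data. Described by values are all called members, members with a mean of at least 50 FPKM and 6 root-hair members. Members, lists and motifs were chosen with earlier results of these data known. Alternatives were the filter, the pseudocount (0.1), the scaling, the trend, the replicate block and each library left out.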

Additional observations from a re-analysis of the deposited data

How the results depend on the processing

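No call of a member changed direction under the 12 alternatives; calls that ended with other filters, scalings or libraries are given with each gene. Leaving out 1 library moved the counts most: genes called 1688 to 4417, XTH genes lower 6 to 16 and higher 0 to 4, expansins lower 2 to 8 and higher 0 to 3, root-list genes lower 3 to 5 and higher 0 to 2, shoot-list genes lower 1 to 3 and higher 0 to 2, and xyloglucan genes lower 0 to 4. For all genes, XTH genes and expansins the low ends belong to fits without a WT library, in which the lone WT library is assumed to vary like the fer-4 pair. Median log2 fold changes ranged over -0.65 to -0.48 for XTH genes, -0.17 to -0.044 for expansins, -0.38 to 0.073 for the root list and -0.44 to -0.14 for the shoot list. Among higher genes, 1 XTH gene was called with a mean of at least 5 FPKM, without the filter, with quantile normalization and without the trend; 2 expansins and 1 root-list gene were called without the filter and with quantile normalization. Adding XTH4 and EXPA1 to the shoot list gave 1 higher gene. With a mean of at least 5 FPKM the medians were -0.67 (XTH), -0.19 (expansins) and -0.51 (root list); without the filter -0.38 (XTH) and -0.042 (expansins); with quantile normalization -0.26 (expansins) and -0.23 (root list). In the 2 filter alternatives other genes enter the median; otherwise the cause was not tested.

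With the replicate block 3772 genes were called in all, with 16 XTH genes lower and 2 higher, 5 expansins lower and 4 higher; the call of EXPA14 ended (adjusted p = 0.0556), and EXLA3 and EXPA16 were called (adjusted p = 0.0303 and 0.0307). Libraries with the same number did not deviate together (Pearson r = -0.22 across 19183 genes that share the libraries), and no label says that a number marks a shared plate or day. With the numbers crossed, an alternative chosen after seeing the data, 5681 genes were called, with 17 XTH genes lower and 3 higher and 5 expansins lower and 4 higher. Depth limits the members at or near 1 FPKM, and 2 libraries a group limit all.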
